A study of Mus musculus with 8 samples.

Results

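The proteasome genes were taken as every gene of the table whose symbol begins with Psma, Psmb, Psmc, Psmd, Psme, Psmf or Psmg, which gave 47 of 10970 genes. The 5 immunoproteasome genes Psmb8, Psmb9, Psmb10, Psme1 and Psme2 were set against the other 42. SCRB-seq, a plate-based single cell RNA-seq that counts mRNA 3′ ends by unique molecular identifiers (UMIs), had been run on neutrophils of donor mice injected intraperitoneally with PBS or with LPS at 0.5 mg/kg. Neutrophils came from peripheral blood (PB) or bone marrow (BM) through a negative enrichment kit, and single cells were picked by mouth pipette, so no surface marker gate was applied to the cells sequenced. The study's methods describe C57BL/6 J male mice 7 to 12 weeks old, although the labels of these samples give neither strain nor age. The labels date the PBS-primed groups to 0 h and the LPS-primed groups to 4 h, whereas the methods harvest both at 4 h, so handling time and LPS cannot be told apart from the labels alone. Each of the 4 groups (PBS-primed PB, LPS-primed PB, PBS-primed BM and LPS-primed BM) held 2 samples, each a single plate of 83 to 92 cells, 711 cells in all. A further 710 cells under 9 plate numbers of a further batch, named batch 6, carry group names but match no single sample. Their sums are given beside those of the samples (batch 7). The plates numbered 31 and 32, both PBS-primed BM, held 45 and 44 cells and are annotated p3_1 and p3_2. They are counted apart here but may be parts of a single plate. Nothing states that the 2 samples of a group came from separate mice, so p-values measure only the spread between these samples, which may be technical.

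The proteasome degrades ubiquitin-tagged proteins into peptides. Its 20S core stacks rings of alpha subunits (Psma genes), which gate the chamber, around rings of beta subunits (Psmb genes), of which Psmb5, Psmb6 and Psmb7 carry the proteolytic sites. Interferons and inflammatory signals induce the alternative catalytic subunits Psmb8, Psmb9 and Psmb10, which replace Psmb5, Psmb6 and Psmb7 respectively in newly made cores and give the immunoproteasome, whose products suit presentation on MHC class I. Psme1 and Psme2 form the PA28 activator that caps the core. The 19S particle, with its ATPases (Psmc genes) and non-ATPase subunits (most Psmd genes), recognises and unfolds substrates, and the Psmg chaperones help to assemble the core.

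Psmb9 lies at chr17:34318932-34324697 on the minus strand of the mouse genome build NCBIM37 (mm9) and Psmb8 at chr17:34334666-34338399 on the plus strand, and with the peptide transporter genes Tap1 and Tap2 they fill 34.3 kb of the MHC region. Psme1, at chr14:56196960-56200366 on the plus strand, and Psme2, at chr14:56206278-56209950 on the minus strand, lie within 12.99 kb of each other. Psmb10, at chr8:108459628-108462292, stands apart from both clusters. All 5 are annotated as protein-coding in GENCODE M1. The promoters of the 3 genes that passed the test for LPS in PB, and of the constitutive counterparts of Psmb8 and Psmb9, are shown because the former rose together while the latter did not pass it. Each window runs from 250 bases before to 50 bases after the RefSeq gene start (build GRCm38.p6), 5′ to 3′ on the gene's strand. Capitals mark matches, on either strand, to TTCNNNGAA (core of the gamma-activated sequence), GAAANNGAA (core of the interferon-stimulated response element), TGACNNNGC (core of the antioxidant response element) or CCAAT. The windows are chr17:34197945-34198244 (plus strand) for Psmb8, chr17:34187281-34187580 (minus) for Psmb9, chr14:55591052-55591351 (minus) for Psme2, chr14:54617946-54618245 (minus) for Psmb5 and chr11:70525107-70525406 (plus) for Psmb6. Psme2 has a second start in the table, and the window of the upstream start is shown.
Psmb8: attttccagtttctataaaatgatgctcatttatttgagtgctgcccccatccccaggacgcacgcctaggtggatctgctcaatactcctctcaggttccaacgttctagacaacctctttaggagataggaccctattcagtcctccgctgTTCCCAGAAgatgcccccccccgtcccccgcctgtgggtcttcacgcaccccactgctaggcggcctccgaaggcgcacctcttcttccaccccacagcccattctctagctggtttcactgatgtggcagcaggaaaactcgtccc
Psmb9: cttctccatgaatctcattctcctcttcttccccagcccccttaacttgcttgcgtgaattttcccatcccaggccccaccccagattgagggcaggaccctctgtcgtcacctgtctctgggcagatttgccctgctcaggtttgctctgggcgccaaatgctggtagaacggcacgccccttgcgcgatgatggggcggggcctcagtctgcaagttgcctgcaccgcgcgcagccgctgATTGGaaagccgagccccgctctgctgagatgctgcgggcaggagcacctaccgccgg
Psme2: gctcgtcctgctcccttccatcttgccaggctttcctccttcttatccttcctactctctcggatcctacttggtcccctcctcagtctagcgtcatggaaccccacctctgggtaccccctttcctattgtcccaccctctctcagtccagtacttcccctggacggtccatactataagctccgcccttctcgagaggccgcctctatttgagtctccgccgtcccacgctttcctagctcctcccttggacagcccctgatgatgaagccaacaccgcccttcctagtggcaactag
Psmb5: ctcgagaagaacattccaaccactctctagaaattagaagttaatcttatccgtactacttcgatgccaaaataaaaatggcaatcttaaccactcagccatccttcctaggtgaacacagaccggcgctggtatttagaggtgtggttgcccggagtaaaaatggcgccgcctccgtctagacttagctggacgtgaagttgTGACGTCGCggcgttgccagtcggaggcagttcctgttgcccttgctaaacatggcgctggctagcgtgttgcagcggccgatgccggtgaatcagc
Psmb6: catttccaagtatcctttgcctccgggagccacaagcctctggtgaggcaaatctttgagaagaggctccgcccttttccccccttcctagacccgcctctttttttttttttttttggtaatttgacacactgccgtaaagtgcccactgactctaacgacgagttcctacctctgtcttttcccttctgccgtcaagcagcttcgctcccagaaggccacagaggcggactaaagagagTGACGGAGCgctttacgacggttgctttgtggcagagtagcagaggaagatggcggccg

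Psmb8 held TTCNNNGAA 97 bases before its start, and Psmb9 held CCAAT 8 bases before its start. Psmb5 and Psmb6 each held TGACNNNGC, at 47 and 9 bases before the start, and the printed Psme2 window held none of the 4 motifs. Among 27025 genes with a window in the table, 9.55% held TTCNNNGAA in at least 1 window, 9.76% GAAANNGAA, 13.99% TGACNNNGC and 41.1% CCAAT. Of the 40 proteasome genes with a window, 3 held TTCNNNGAA (Psmb8, Psmd2 and Psmg1), 7 GAAANNGAA (Psme1 was the only immunoproteasome gene of these), 6 TGACNNNGC and 13 CCAAT. The Psmb9 and Tap1 windows face away from each other across starts 226 bases apart and share 275 bases, so that much of what is printed for Psmb9 is also the Tap1 promoter.

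The 8 samples held 3240559 to 8361677 UMIs, 9908 to 20423 of which fell on proteasome genes. Summed markers of neutrophils (10 genes, none at 0 in any sample) lay between 145900 and 330100 UMIs when each sample's total was set to 1000000 (CPM, the scale of every level given here). These sums, most of which were S100a8 and S100a9, were lowest in PBS-primed PB, at 145900 and 154600. They were 259500 and 285400 in LPS-primed PB and 288400 to 330100 in BM. S100a8, S100a9, Ly6g, Retnlg and Mmp8 were each lowest in PBS-primed PB, but Csf3r and Cxcr2 were highest there. Csf3r stood at 6748 and 5743 in PBS-primed PB, 2829 and 2505 in LPS-primed PB and 1291 to 2249 in BM. For Cxcr2 the values were 2886 and 2576, 2159 and 1889, and 953.3 to 2279. Mmp9, Itgam and Fpr1 followed neither order. T cell markers (6 genes) summed to 349 and 453.3 CPM in PBS-primed PB, with none at 0, against 1.562 and 1.699 in LPS-primed PB and 13.5 to 42.58 in BM. Of the NK cell markers (4 genes, 2 at 0 in each PBS-primed PB sample), the sums were 171.7 and 41.35 in PBS-primed PB and at most 0.3398 elsewhere, and B cell markers (5 genes) summed to 80.52 and 107.7 there and at most 1.316 elsewhere. Cd3d made up nearly all of the T cell sum in BM, except in LPS-primed BM sample 2. In PBS-primed PB, 8 and 6 cells held at least 10 UMIs of these lymphocyte markers, and no cell of LPS-primed PB did. In the median flagged cell of PBS-primed PB, neutrophil markers took 9.56% and 3.01% of UMIs, against 15.2% and 13.4% in its other cells. In BM the flagged cells stood at 25.9% to 35.1% and the others at 30.0% to 37.1%. Whether the flagged cells were lymphocytes was not tested. Platelet markers (4 genes) summed to 422.6 and 287.6 in PBS-primed PB, 123.5 and 73.4 in LPS-primed PB and at most 0.3865 in BM. The PBS-primed PB plates of batch 6 held more of several of these markers, with platelet sums of 2718 and 1139, NK cell sums of 900.9 and 273.3, and 28 and 5 cells with at least 10 lymphocyte marker UMIs. On these plates neutrophil markers took 12.7% and 9.65% in the median flagged cell, against 12.9% and 16.5% in the others. Hepatocyte markers (5 genes) summed to 1464 and 2247 in PBS-primed PB, 828 and 862.5 in LPS-primed PB and at most 15.93 in BM. Monocyte and macrophage markers (6 genes, 3 at 0 in each LPS-primed PB sample) summed to 579.9 and 232.4 in PBS-primed PB, 996.8 and 852.3 in LPS-primed PB and 867.2 to 1052 in BM. Ly6c2 alone made up most of the sums in LPS-primed PB and BM. It stood at 192.6 and 125.6 in PBS-primed PB, 874.4 and 640.1 in LPS-primed PB and 758.3 to 896.2 in BM, while Csf1r and Adgre1 overlapped between the PB groups. Granule genes of immature neutrophils (5 genes) summed to 1313 and 1412 in PBS-primed PB, 32730 and 38010 in LPS-primed PB, and 54180 to 87380 in BM. Except where results without lymphocyte-marker cells are given, the part of these differences in the results was not tested.

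Within the proteasome genes, the immunoproteasome took a larger part in LPS-primed PB than in any other group. On total UMIs, all members together summed to 3181 and 3058 CPM in PBS-primed PB and to 3189 and 3131 in LPS-primed PB. On that scale the range of these 4 samples was narrower than the gap to BM. Neither holds with TMM scaling (described below), which divides by factors of 1.35 and 1.37 in PBS-primed PB and 0.748 and 0.694 in LPS-primed PB. In PBS-primed BM the factors were 0.963 and 0.930. The sums are then higher after LPS in PB, and those of PBS-primed PB fall below those of PBS-primed BM. On the batch 6 plates the sums on total UMIs were 2841 and 3043 in PBS-primed PB and 3665 and 3332 in LPS-primed PB, higher after LPS without overlap. In the BM samples the sums on total UMIs were 2406 and 2431 after PBS and 2224 and 2234 after LPS. Within each sample's sum, the immunoproteasome genes took 19.2% and 20.9% of the proteasome UMIs in PBS-primed PB and 57.6% and 57.1% in LPS-primed PB. They took 17.5% and 14.5% in PBS-primed BM and 14.4% and 17.0% in LPS-primed BM. The share was therefore 20.04% ± 1.16 (SD, n = 2) in PBS-primed PB and 57.3% ± 0.348 (SD, n = 2) in LPS-primed PB, and no sample of the other 3 groups exceeded 20.9%. This share is a ratio within a sample, so it does not depend on how samples are scaled to each other, and it is a description with no test. A UMI stands for a captured 3′ end, so genes were added up without dividing by length.

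**Figure D1:**
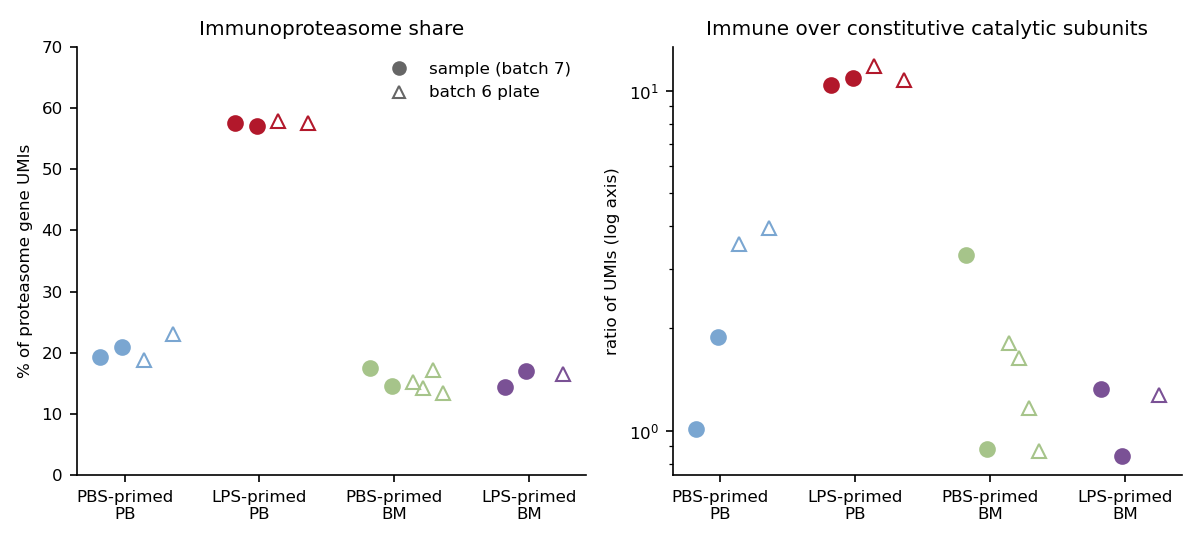
Left, the immunoproteasome genes' share of all proteasome gene UMIs (%); right, the ratio of UMIs of Psmb8, Psmb9 and Psmb10 to those of Psmb5, Psmb6 and Psmb7 (log axis), in each sample (filled circles) and each batch 6 plate (open triangles). All 4 LPS-primed PB libraries lie between 57.1% and 57.9% on the left and between 10.4 and 11.8 on the right, above every other library.

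The share on the batch 6 plates lay close to that in the samples. LPS-primed PB plates stood at 57.9% and 57.6%, and PBS-primed PB plates at 18.8% and 23.0%. The 4 PBS-primed BM plates, with p3_1 and p3_2 counted apart, lay between 13.4% and 17.2%, and the only LPS-primed BM plate was at 16.5%. No library outside LPS-primed PB exceeded 23.0% in either batch. Without the cells holding lymphocyte markers, the share in the PBS-primed PB samples was 15.96% and 15.77%, and that in the LPS-primed PB samples was unchanged as no cell there was removed. On the batch 6 plates it was then 13.7% and 24.6% in PBS-primed PB, and 57.3% and 59.3% in LPS-primed PB, where 1 and 7 cells were removed. With every cell thinned to 5000 UMIs, the shares were 19.4% and 19.4% in PBS-primed PB and 54.8% and 53.0% in LPS-primed PB.

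**Figure D2:**
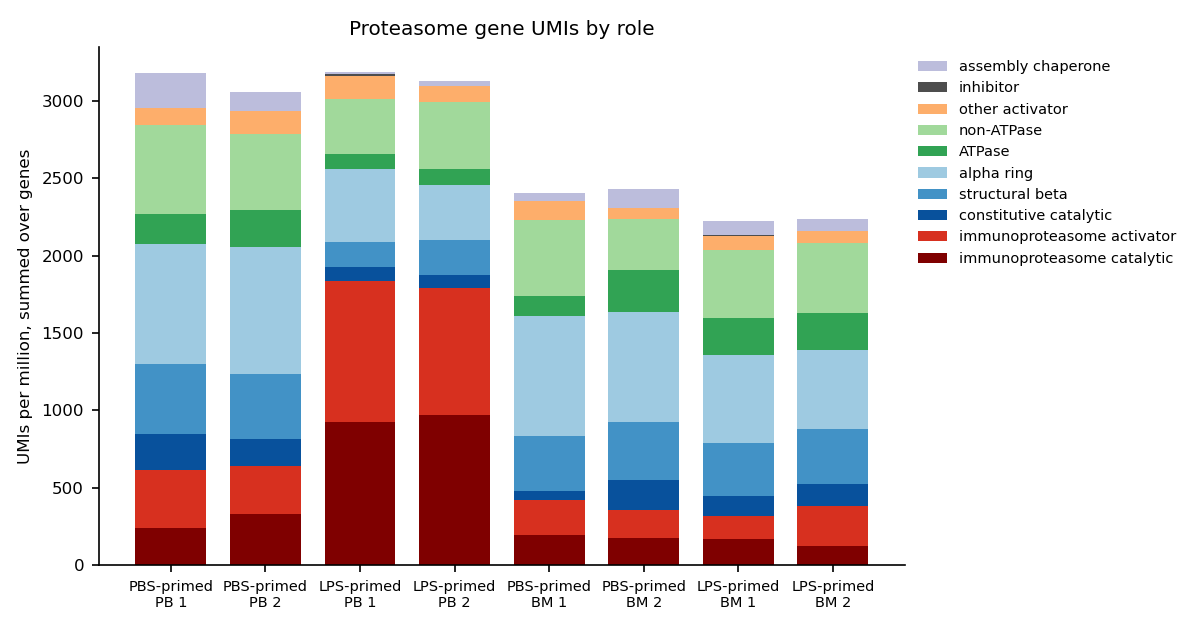
CPM summed over the proteasome genes of each role, stacked, for the 8 samples. On this scale of total UMIs the bars of the 4 PB samples reach 3058 to 3189. The immunoproteasome segments (red, at the base) take 57.6% and 57.1% in LPS-primed PB against 19.2% and 20.9% in PBS-primed PB.

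On total UMIs, the sums of several other roles were lower in LPS-primed PB than in PBS-primed PB in the samples. The 7 alpha ring genes summed to 777 and 817 CPM in PBS-primed PB and to 473 and 352 in LPS-primed PB. The 4 structural beta genes went from 452 and 424 to 161 and 226, and the 6 ATPases from 195 and 239 to 96.4 and 107. The 11 non-ATPase subunits stood at 577 and 497 after PBS and 358 and 429 after LPS. The 7 assembly chaperones stood at 228 and 122 after PBS and 12.03 and 35.85 after LPS. The 3 constitutive catalytic genes summed to 234 and 175 after PBS and 88.9 and 88.7 after LPS. For each of these sums the PB samples did not overlap, on the scale of total UMIs, and no test was made on the sums. On the batch 6 plates the structural beta sums overlapped, at 294 and 378 after PBS and 346 and 345 after LPS. The other sums were lower after LPS there too. They were 589 and 827 against 500.3 and 406 for the alpha ring, and 326 and 159 against 131 and 149 for the ATPases. For the non-ATPase subunits they were 645 and 485 against 284 and 211, and for the chaperones 142 and 166 against 47.8 and 66.4. For the constitutive catalytic genes they were 103 and 141 against 86.4 and 82.8. On that scale most genes were lower in LPS-primed PB: the median log2 fold change over all 8478 genes tested was -1.02 on total UMIs (library size alone), against -0.11 with TMM scaling, which sets each sample's size from the bulk of its genes rather than from its total. The immunoproteasome sums went the other way, with 237 and 332 CPM for the 3 immune catalytic genes in PBS-primed PB and 925 and 971 in LPS-primed PB.

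Among the catalytic subunits, the ratio of immune to constitutive UMIs was 1.01 and 1.89 in PBS-primed PB and 10.4 and 11.0 in LPS-primed PB. In PBS-primed BM it was 3.28 and 0.886, and in LPS-primed BM 1.32 and 0.845. The pooled batch 6 plates gave 3.79, 11.4, 1.47 and 1.27 in the same order of groups, so that PBS-primed PB was higher in batch 6 than in either sample. Taken by the subunit each replaces, Psmb8 over Psmb5 was 2.16 and 3.34 in PBS-primed PB and 35.4 and 40.5 in LPS-primed PB, but it was also 19.5 in PBS-primed BM sample 1, where Psmb5 stood at 5.2 CPM. Psmb9 over Psmb6 was 0.624 and 0.613 after PBS and 2.87 and 7.39 after LPS in PB, and 11.0 in that same BM sample, where Psmb6 was also low. Psmb10 over Psmb7 was 0.0277 and 2.30 after PBS and 6.79 and 3.49 after LPS in PB, and at most 0.463 in the BM samples. On the batch 6 plates Psmb8 over Psmb5 did not overlap in PB, at 9.40 and 14.2 after PBS and 49.97 and 25.996 after LPS. Psmb9 over Psmb6 overlapped there, at 5.10 and 1.52 against 7.44 and 3.57, as did Psmb10 over Psmb7, at 0.532 and 4.84 against 2.86 and 5.41. A PBS-primed BM plate reached 1.38 for Psmb10 over Psmb7.

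Of the immunoproteasome genes, Psme2, the beta chain of PA28, had the lowest adjusted p for LPS in PB. Reads could have been shared between it and its near copy Psme2b, described below. The levels of Psme2 were 190.8 and 207.4 CPM in PBS-primed PB, 741.7 and 658.6 in LPS-primed PB, 127.6 and 117.4 in PBS-primed BM, and 109.4 and 171.3 in LPS-primed BM. Both LPS-primed PB samples were above all 6 others. With TMM scaling the log2 fold change for LPS in PB was 2.73 ± 0.323 (SE; adjusted p = 0.000646, edgeR's quasi-likelihood test), and with library size alone it was 1.81 (adjusted p = 0.011, edgeR). Adjusted p-values are Benjamini-Hochberg values over all genes tested. Over 17 alternative settings the adjusted p of Psme2 ran from 3.14e-12 to 0.0218 (edgeR, DESeq2 or limma). The batch 6 plates stood at 94.1 and 87.4 CPM in PBS-primed PB and at 838.5 and 872.5 in LPS-primed PB. Without lymphocyte-marker cells the PBS-primed PB samples stood at 148.2 and 113.9.

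Psmb8, the immune counterpart of Psmb5, stood at 170.6 and 215.4 CPM in PBS-primed PB, 663.9 and 543.9 in LPS-primed PB, 100.8 and 104.4 in PBS-primed BM, and 114.9 and 64.7 in LPS-primed BM. The LPS-primed PB samples were again the 2 highest, and the PBS-primed PB samples came next. The log2 fold change in PB was 2.56 ± 0.357 (SE; adjusted p = 0.00195, edgeR's quasi-likelihood test) after TMM scaling and 1.64 (adjusted p = 0.0307, edgeR) with library size alone, and over the 17 settings the adjusted p ran from 9.14e-09 to 0.0471 (edgeR, DESeq2 or limma). The batch 6 plates stood at 188.9 and 334.1 CPM in PBS-primed PB and at 652.7 and 631.0 in LPS-primed PB. Without lymphocyte-marker cells the PBS-primed PB samples stood at 109.0 and 145.2.

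Psmb9, the immune counterpart of Psmb6, stood at 65.2 and 50.3 CPM in PBS-primed PB, 157.7 and 312.5 in LPS-primed PB, 80.6 and 51.4 in PBS-primed BM, and 48.7 and 57.5 in LPS-primed BM. The LPS-primed PB samples were the highest but lay far apart from each other. The log2 fold change in PB was 2.95 ± 0.524 (SE; adjusted p = 0.00919, edgeR's quasi-likelihood test). It was 2.02 with library size alone (adjusted p = 0.0551, edgeR), and it no longer passed without either PBS-primed PB sample or without LPS-primed PB sample 2 (adjusted p = 0.072, 0.108 and 0.105, edgeR). The adjusted p ran from 7.26e-06 to 0.108 over the 17 settings (edgeR, DESeq2 or limma) and missed the threshold under 5 of them. In batch 6 the PB groups overlapped for this gene, with plates at 147.0 and 159.3 after PBS and 256.2 and 107.8 after LPS.

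Psmb10, the immune counterpart of Psmb7, stood at 1.39 and 66.0 CPM in PBS-primed PB, 102.9 and 115.0 in LPS-primed PB, 11.9 and 16.4 in PBS-primed BM, and 5.67 and 2.43 in LPS-primed BM. The groups did not overlap in PB, but the PBS-primed samples were far apart, and the log2 fold change of 2.63 ± 1.27 (SE) did not pass (adjusted p = 0.329, edgeR's quasi-likelihood test). In PBS-primed PB sample 2, 2 cells held 89.7% of the 214 Psmb10 UMIs. Without the 14 PBS-primed PB and 17 BM cells that held lymphocyte markers, a setting added after the data were seen, Psmb10 stood at 1.65 and 4.47 in PBS-primed PB against 102.9 and 115.0 in LPS-primed PB. The log2 fold change was then 5.94 (adjusted p = 0.0119, edgeR), which raised the members called from 3 to 4. Over the 17 settings the adjusted p of Psmb10 ran from 0.0119 to 0.594 (edgeR, DESeq2 or limma). With the same cells left out of batch 6, the PBS-primed PB plates stood at 13.5 and 53.5 and the LPS-primed PB plates at 111.5 and 152.2.

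Psme1, the alpha chain of PA28, stood at 183.6 and 98.7 CPM in PBS-primed PB, 170.5 and 157.9 in LPS-primed PB, 98.9 and 64.1 in PBS-primed BM, and 41.0 and 83.4 in LPS-primed BM. The PB groups overlapped on the scale of total UMIs, unlike those of its partner Psme2. The log2 fold change in PB was 1.12 ± 0.52 (SE; adjusted p = 0.31, edgeR's quasi-likelihood test) after TMM scaling and 0.21 with library size alone. In batch 6 the plates did not overlap, at 74.9 and 56.8 after PBS and 262.1 and 154.0 after LPS, and with these sums added the log2 fold change was 1.61 (adjusted p = 0.0347, edgeR; 0.0347 to 0.846 over the 17 settings).

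**Figure D3:**
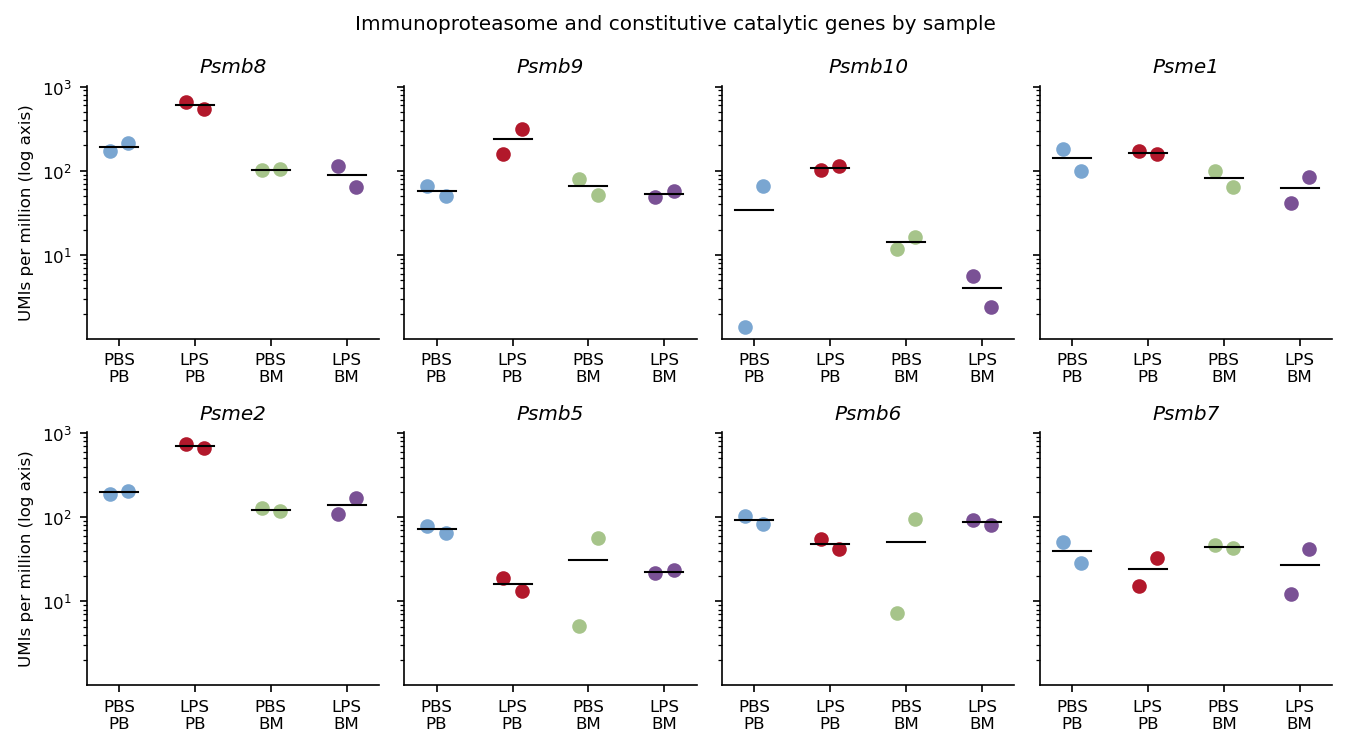
CPM (log axis) of the 5 immunoproteasome genes and of Psmb5, Psmb6 and Psmb7 in the 2 samples of each group (points), with the mean of the 2 as a line. Psmb8 and Psme2 lie above 540 in LPS-primed PB and below 220 elsewhere, while Psmb5 lies lower in the LPS-primed PB samples than in the PBS-primed PB samples.

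The constitutive catalytic genes passed no test. Psmb5 stood at 79.1 and 64.5 CPM in PBS-primed PB and 18.7 and 13.4 in LPS-primed PB, without overlap, with a log2 fold change of -1.25 ± 1.12 (SE; adjusted p = 0.63, edgeR's quasi-likelihood test). In batch 6 the Psmb5 plates overlapped, at 20.1 and 23.5 after PBS and 13.1 and 24.3 after LPS. Psmb6 stood at 104.5 and 82.1 against 55.0 and 42.3, and its log2 fold change of -0.04 was close to 0 once TMM scaling was applied. Psmb7 stood at 50.2 and 28.7 against 15.1 and 33.0, with a log2 fold change of 0.21 that turned to -0.72 with library size alone. Both also overlapped on the batch 6 plates, Psmb6 at 28.8 and 104.7 against 34.4 and 30.2, and Psmb7 at 54.2 and 12.9 against 38.9 and 28.4. In BM, Psmb5 and Psmb6 were low in PBS-primed sample 1 (5.2 and 7.3) and high in sample 2 (56.9 and 94.8), a spread within 1 group wider than any difference between the PB groups for Psmb6.

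Across the family, edgeR's quasi-likelihood test called 3 of 46 members higher in LPS-primed PB (Psmb8, Psmb9 and Psme2) and none lower, against 3.47% of all 8478 genes called higher. Psmd9, a 19S assembly chaperone, was too low to be tested. The median log2 fold change was 2.63 over the 5 immunoproteasome genes, -0.04 over the 41 other members tested and -0.11 over all genes. With library size alone these medians were 1.69, -0.94 and -1.02. In TMM-scaled levels, all 5 immunoproteasome genes and 9 of the 41 others were higher in both LPS-primed PB samples than in both PBS-primed ones, beside 22.3% of all genes, and 12 of the 41 were lower in both, beside 23.7%. With library size alone it was 4 of 5 and 5 of 41 higher, beside 11.4% of all genes, and 19 of 41 lower, beside 41.5%. Psme2b, a near copy of Psme2 that may share its reads, was among the others that were higher on both scales.

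**Figure D4:**
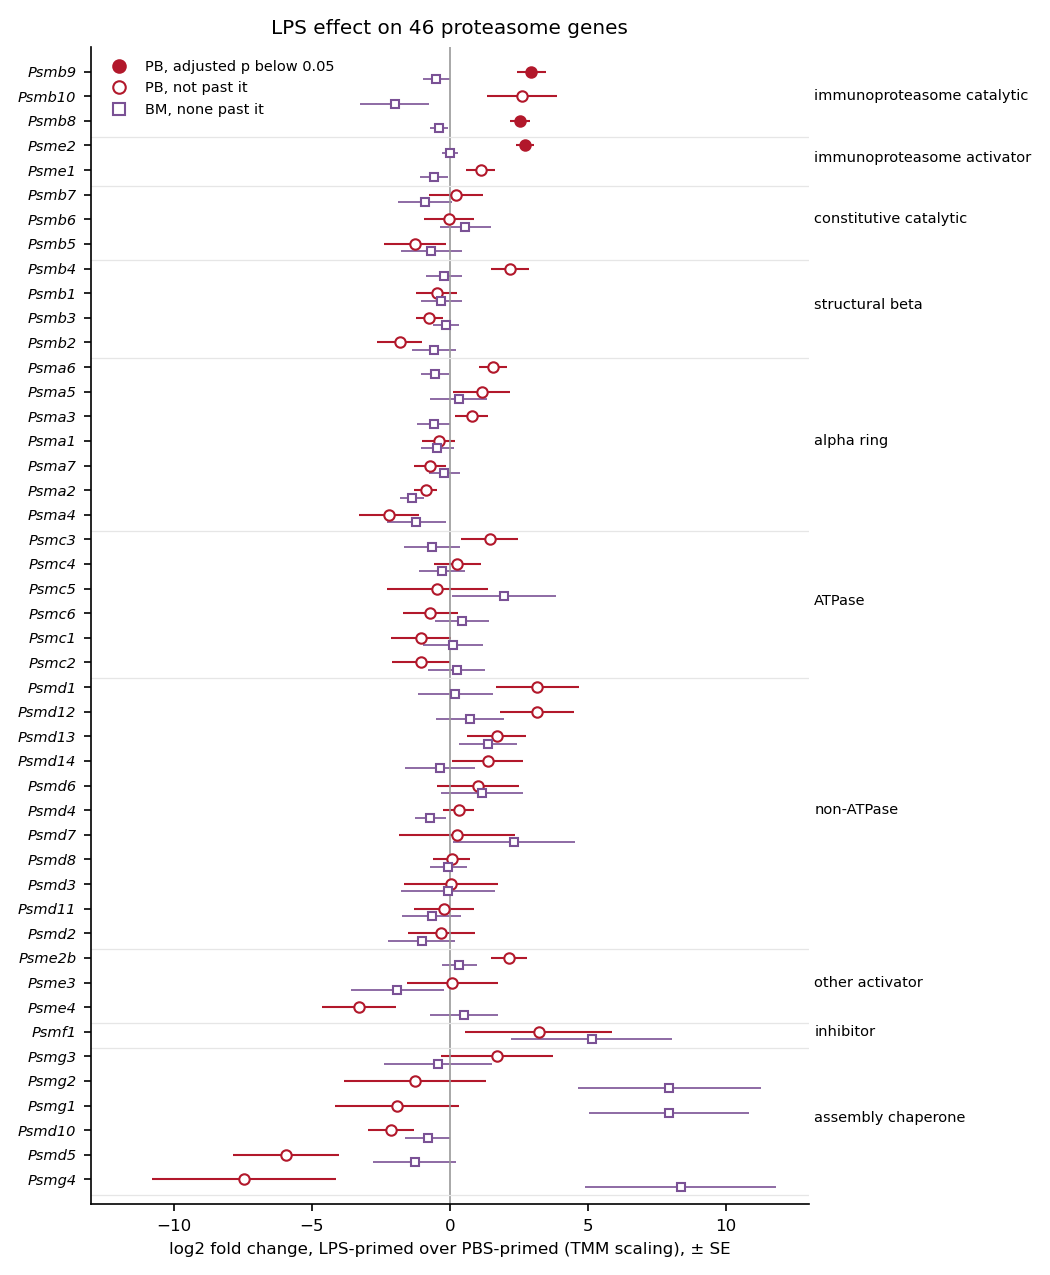
The log2 fold change of LPS-primed over PBS-primed neutrophils with TMM scaling (± SE) for the 46 members tested, grouped by role, in PB (red circles, filled where the adjusted p is below 0.05) and BM (purple squares). The filled points are Psmb9 (2.95), Psmb8 (2.56) and Psme2 (2.73), and no BM value passed.

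The remaining roles held no call with TMM scaling and edgeR on the 8 samples. Other settings did call members there: library size alone called Psma2, DESeq2 called Psmb4, Psmd5, Psmd10, Psme2b, Psme4 and Psmg4, the addition of batch 6 called Psmb4 and Psme2b, and the fit without PBS-primed PB sample 1 called Psmd14. In the alpha ring, Psma7 had the highest mean level (146.6 CPM over the 8 samples) and a log2 fold change in PB of -0.71, Psma6 had the largest positive value (1.58 ± 0.508 SE; adjusted p = 0.138, edgeR's quasi-likelihood test) and Psma4 the largest negative (-2.20). Of the structural beta genes, Psmb3 was the most abundant (121.5; log2 fold change -0.73), Psmb2 had -1.81 and Psmb4 had 2.19 ± 0.69 (SE; adjusted p = 0.128, edgeR). Psmb4 stood at 24.8 and 38.9 CPM in PBS-primed PB and 75.7 and 77.7 in LPS-primed PB, and was the only 20S core subunit outside the immunoproteasome that was higher in both LPS-primed PB samples on both scales. The ATPases ranged from -1.05 (Psmc2) to 1.44 (Psmc3), with Psmc4 the most abundant (38.1; 0.28). Among the non-ATPase subunits, the ubiquitin receptor Psmd4 was the most abundant (116.1; 0.32), Psmd1 had 3.18 from 1.0 and 4.3 to 5.6 and 19.2 CPM, and Psmd2 had -0.30. The assembly chaperone Psmd10 (gankyrin) was the most abundant of its role and stood at 138.2 and 84.9 after PBS and 10.6 and 16.1 after LPS (log2 fold change -2.14; adjusted p = 0.236, edgeR). Psmg3 had 1.70 and Psmg4 -7.46, the latter resting on PBS-primed PB sample 1 at 64.5 CPM against 0.3 in sample 2. The inhibitor Psmf1 was near the floor, with a mean of 3.32, and had 3.22 ± 2.66 (SE). Several of these largest positive values did not recur on the batch 6 plates, on total UMIs. Psma6 stood there at 166.9 and 176.2 after PBS and 95.8 and 97.0 after LPS. Psmd1 stood at 25.3 and 11.4 against 3.2 and 7.0, and Psmf1 at 25.8 and 62.8 against 0.5 and 0.1. Psmc3 and Psmg3 overlapped, while Psmb4 was higher after LPS, at 82.6 and 43.0 against 164.8 and 209.5.

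Psme2b is a near copy of Psme2. It was annotated as Psme2b-ps in GENCODE M1 (chr11:48758856-48759692, minus strand, NCBIM37), and its coding sequence differs from that of Psme2 at 5 of 720 bases, 3 of them in the last 300. Reads of these genes could have been split between them, so the values of both are uncertain. Psme2b stood at 47.20 and 49.99 CPM in PBS-primed PB, 128.5 and 102.6 in LPS-primed PB, and 13.3 to 33.0 in BM. Its log2 fold change of 2.16 ± 0.655 (SE) did not pass (adjusted p = 0.112, edgeR's quasi-likelihood test). Of the other activators, Psme4 (PA200, a nuclear cap) had -3.30, from 59.10 and 70.05 to 6.2 and 0.8 CPM, and did not pass either. On the batch 6 plates Psme4 overlapped in PB, at 27.1 and 18.4 after PBS and 44.5 and 26.2 after LPS.

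The shift was seen within single cells of LPS-primed PB. Among cells with at least 20 proteasome UMIs, the median cell held 55.0% and 56.7% of them on the 5 immunoproteasome genes in LPS-primed PB, and 6.67% and 6.06% in PBS-primed PB. The medians were 6.77% and 4.25% in PBS-primed BM and 9.16% and 6.67% in LPS-primed BM. Cells above 50% were 54.9% (45 of 82) and 59.2% (42 of 71) in LPS-primed PB, and 4.17% to 15.3% in the other 6 samples. In LPS-primed PB the lower quartile was still 35.9% and 24.9%, above the median of every other sample. In batch 6 the plate medians were 57.6% and 60.7% in LPS-primed PB and 3.64% to 15.3% elsewhere.

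**Figure D5:**
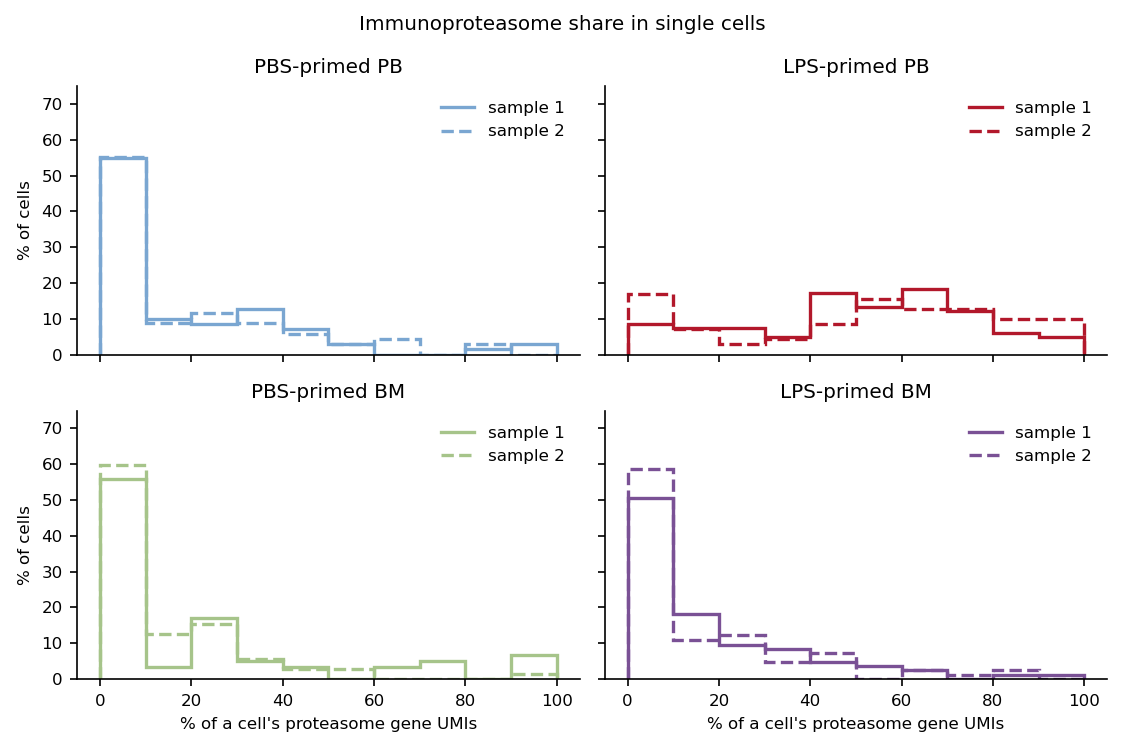
Distribution over cells (% of cells per 10-point bin) of the immunoproteasome share of a cell's proteasome UMIs, for cells with at least 20 such UMIs, in the 2 samples of each group (solid and dashed). The tallest bin is the lowest in the 6 samples outside LPS-primed PB, where the median cell lies between 4.25% and 9.16%, while the LPS-primed PB cells spread around medians of 55.0% and 56.7%.

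Detection moved with the levels. In cells thinned to 5000 UMIs, Psme2 was seen in 63.7% (58 of 91, exact 95% interval 53.0 to 73.6) and 51.2% (44 of 86, 40.1 to 62.1) of LPS-primed PB cells, and in 21.1% and 20.9% of PBS-primed PB cells. Psmb8 was seen in 57.1% and 46.5% of LPS-primed PB cells and in 22.2% and 19.8% of PBS-primed PB cells. Without thinning, Psmb8 was seen in 87.9% and 79.1% after LPS and in 58.9% and 45.3% after PBS in PB. The intervals cover counting error only. Psmb9 was seen in 26.4% and 36.05% of thinned cells against 10% and 13.95%, and Psmb10 in 13.19% and 26.74% against 2.22% and 6.98%. Each of these 4 genes was seen in more cells of both LPS-primed PB samples than of any other sample.

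In BM neutrophils LPS left the immunoproteasome genes without a call. No member passed, and of all genes 0.0708% did, with 684 genes and 4 members at an unadjusted p under 0.05. DESeq2 and limma also called no member. The log2 fold changes (edgeR's quasi-likelihood test) were -0.38 ± 0.338 for Psmb8, -0.49 ± 0.488 for Psmb9, -1.997 ± 1.26 for Psmb10, -0.57 ± 0.516 for Psme1 and 0.01 ± 0.303 for Psme2 (SE). An interaction term compared the response of the 2 tissues directly, and 3 of 46 members responded more strongly in PB beside 1.45% of all genes. It was 2.94 ± 0.487 (SE) on the log2 scale for Psmb8, 3.45 ± 0.708 for Psmb9 and 2.71 ± 0.436 for Psme2, with adjusted p = 0.0106, 0.0381 and 0.00886 (edgeR). With library size alone none of these 3 differences passed (1.83, 2.33 and 1.61), and without PBS-primed PB sample 1 none did either (adjusted p = 0.0761, 0.114 and 0.0606, edgeR).

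No member was called by edgeR's quasi-likelihood test between PBS-primed PB and PBS-primed BM, where 2.61% of all genes were, while 5 members and 1569 genes had an unadjusted p under 0.05. DESeq2 called Psma6, Psmd1 and Psmg4. On total UMIs, Psmb8 was higher in PBS-primed PB (170.6 and 215.4 against 100.8 and 104.4), as was Psme2 (190.8 and 207.4 against 127.6 and 117.4), but these differences did not pass. On the batch 6 plates Psmb8 was again higher, at 188.9 and 334.1 against 55.5 to 98.7. Psme2 was not higher there, at 94.1 and 87.4 in PBS-primed PB against 88.0 to 181.1 in PBS-primed BM. The PBS-primed PB levels of both genes were also lower without lymphocyte-marker cells, as given above.

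Of 25 genes that serve the proteasome without bearing its name, 19 were tested and 1 passed for LPS in PB, beside 3.47% of all genes called higher. It was Sem1, a small 19S subunit, with a log2 fold change of 1.13 ± 0.193 (SE; adjusted p = 0.00726, edgeR's quasi-likelihood test). Sem1 levels were 1074 and 1155 CPM in PBS-primed PB and 1350 and 1246 in LPS-primed PB, and with library size alone the change was 0.22 (adjusted p = 0.544, edgeR), so the call depends on the scaling. It held under 14 of 17 settings (adjusted p from 9.92e-05 to 0.544, edgeR, DESeq2 or limma). Its level was also lower in PBS-primed PB than in PBS-primed BM, where it was 1710 and 1392 (log2 fold change -0.99, adjusted p = 0.0206, edgeR). With library size alone this difference was -0.47 and did not pass (adjusted p = 0.202, edgeR). In the pooled batch 6 sums Sem1 stood at 1248 in PBS-primed PB, 1118 in LPS-primed PB and 1461 in PBS-primed BM, so it was not higher after LPS in PB there on total UMIs. Pomp, the chaperone that matures the core, stood at 55.9 and 87.3 after PBS and 64.5 and 63.4 after LPS in PB (log2 fold change 0.75, adjusted p = 0.534, edgeR). Of the factors that did not pass, AI314180 stood at 106.9 and 90.4 CPM after PBS and 6.09 and 10.2 after LPS in PB. Its log2 fold change with TMM scaling was -2.67 (adjusted p = 0.231, edgeR). The ubiquitin gene Ubb stood at 3081 and 3828 against 1557 and 1559. On that scale of total UMIs the median log2 fold change over all genes was -1.02, and with TMM scaling Ubb had -0.23 (adjusted p = 0.58, edgeR). The median over the 19 was -0.03, beside -0.11 over all genes.

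Among 15 genes of interferon signalling and of class I peptide handling, the next steps for peptides cut by the immunoproteasome, 4 passed for LPS in PB and all 4 were higher, beside 3.47% of all genes called higher. The median over the 15 was 1.07, beside -0.11 over all genes. Tap1, which shares its promoter region with Psmb9, stood at 92.8 and 145.0 CPM in PBS-primed PB, 472.0 and 369.7 in LPS-primed PB and 24.8 to 68.7 in BM (log2 fold change 2.73 ± 0.414 SE; adjusted p = 0.00338, edgeR's quasi-likelihood test). Tapbp (tapasin) stood at 164.6 and 240.1 against 468.5 and 533.7 in PB, with a log2 fold change of 2.23, which with library size alone was 1.30 and did not pass (adjusted p = 0.0626, edgeR; 1.54e-06 to 0.0632 over the 17 settings). The class I light chain B2m rose from 3676 and 3824 to 6968 and 8109 (log2 fold change 1.93), and the heavy chain H2-K1 from 843.7 and 783.2 to 1811 and 1450 (1.91). The LPS effect was larger in PB than in BM for B2m (2.75; adjusted p = 0.000102, edgeR) and H2-K1 (1.97; adjusted p = 0.0114, edgeR). For B2m this difference passed under 17 of 17 settings, and for H2-K1 under 13, with 0.87 (adjusted p = 0.23, edgeR) for library size alone. The transcription factor gene Irf1 did not pass (0.937; adjusted p = 0.224, edgeR), and Nlrc5, the class I transactivator, stood at 30.3 and 0.617 after PBS and 131.2 and 114.5 after LPS (adjusted p = 0.283, edgeR). H2-D1 changed by 0.71 (adjusted p = 0.0533, edgeR), and on total UMIs its PB groups, 3568 and 4130 against 3049 and 3612, overlapped. No gene of either list passed for LPS in BM.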

How the data were processed

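UMI counts per gene and cell were deposited by the authors as a single table of 10970 genes by 1421 cells. The submitters' processing notes name cutadapt 1.15, STAR 2.6.0a and HTSeq 0.11.2 and the build mm9. The setting for reads that match several genes is not given in the sources used here, so near copies may share reads. The members and gene lists were chosen with earlier results of these data known.

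The cells of a sample were added up gene by gene. The sums (filter by edgeR's filterByExpr, 8478 genes) were fitted in a single 4-group model with edgeR 4.0.16 (TMM scaling, quasi-likelihood F test, R 4.3.3) and adjusted by Benjamini-Hochberg at 0.05. SE is the log2 fold change over the root of F. Differences were coded LPS minus PBS and PB minus BM. Named genes were the 5 immunoproteasome genes, Psmb5 to Psmb7, every member called, and per role the most abundant member and the largest change in each direction, plus called genes of the lists. Of the lists, Pomp, AI314180, Ubb, Irf1, Nlrc5 and H2-D1 were named outside this rule, as none of them passed. Shares and ratios within a sample were not tested. All cells in the table were used, at 32295 to 76133 median UMIs per cell, with no doublet caller run on single picked cells. Alternatives were library size and relative log expression scaling, DESeq2 1.42.0, limma 3.58.1 with voom, no filter, cells thinned to 5000 UMIs, batch 6 sums added, a replicate block, each sample left out and, chosen after seeing the data, cells with lymphocyte markers left out. Same-numbered samples did not deviate together (correlations -0.0313 to 0.00638), so the numbers were not taken as pairs. Replicates differed by more than sampling noise (chi-square per degree of freedom 60.85 to 107.3).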

Additional observations from a re-analysis of the deposited data

Results flagged for a closer look

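Psmb8, Psmb9 and Psme2 were picked out because their LPS effect differed between PB and BM by a test of the difference itself (edgeR's quasi-likelihood test). The LPS effect in PB exceeded that in BM by 2.94 ± 0.487 (SE, log2) for Psmb8, 3.45 ± 0.708 for Psmb9 and 2.71 ± 0.436 for Psme2, with adjusted p = 0.0106, 0.0381 and 0.00886 (edgeR). Over 17 alternatives each difference kept its sign, but it missed the threshold under 3 of them for Psmb8, 9 for Psmb9 and 4 for Psme2, and none of the 3 passed with library size alone. Groups of 2 samples are too small to look for outlying samples.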

How the results depend on the processing

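Changing the processing left 3 members called for LPS in PB in most settings. The count was 9 with DESeq2 and 6 with batch 6 pooled sums added, 4 without cells holding lymphocyte markers, and 2 to 3 with a sample left out. With library size alone it was 3, but Psma2, which was lower, stood in place of Psmb9. No alternative called a member for LPS in BM. Between PBS-primed PB and BM, DESeq2 called 3, and leaving out a sample gave 0 to 1 (Psmd14 without PBS-primed PB sample 1). For the difference of the LPS effects the count was 0 with library size alone, 1 with cells thinned and 0 to 3 with a sample left out (0 without PBS-primed PB sample 1, 1 without either LPS-primed BM sample). With a replicate block the counts were 3, 0, 0 and 3 in the order of the comparisons, so it changed none.

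The immunoproteasome share in PBS-primed PB was 16.5% without the 2 cells with most member UMIs and 15.9% without lymphocyte-marker cells. In LPS-primed PB it was 53.9% thinned and 57.7% in batch 6, and in PBS-primed BM 13.7% thinned. Immune catalytic subunits over the core and 19S particle took 11.5% and 44.3% in PB after PBS and LPS, and 9.01% and 7.90% in BM. Each sample alone gave 19.2 to 20.9%, 57.1 to 57.6%, 14.5 to 17.5% and 14.4 to 17.0% in that order. The catalytic ratio was 3.79 in batch 6 for PBS-primed PB, and for LPS-primed PB 12.9 thinned, 10.3 without the 2 top cells and 11.4 in batch 6. Single samples gave 1.01 to 1.89, 10.4 to 11.0, 0.886 to 3.28 and 0.845 to 1.32.

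Signs turned for values that passed no threshold. For LPS in PB these were Psmb6 (0.40 without lymphocyte-marker cells, -0.243 to 0.0936 with a sample left out), Psmb7 (-0.72 library size, -0.552 to 0.663 with a sample left out), Psmc4 (-0.65 library size, -0.21 batch 6 added, -0.0355 without lymphocyte-marker cells, -0.204 to 0.592 with a sample left out), Psmd4 (-0.61 library size, -0.37 thinned, -0.230 to 0.668 with a sample left out), Psmd2 (0.24 replicate block, -1.04 to 1.05 with a sample left out), Psmf1 (-1.28 to 6.05) and Psmg3 (-3.16 to 5.29), the last 2 with a sample left out. For LPS in BM these were Psmb9 (0.0455 thinned) and Psme2 (-0.0265 with relative log expression scaling, -0.0264 with DESeq2, -0.0180 limma, -0.00788 no filter, -0.00685 replicate block, -0.0564 batch 6 added, -0.364 to 0.291 with a sample left out). The causes were not tested. With 2 samples a group and a common dispersion of 1.06, only large changes could be called.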
